A study of Arabidopsis thaliana with 24 samples.

Results

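Small RNA of the rrp4-2/urt1-1/heso1-4 triple mutant of Arabidopsis thaliana was set against that of the rrp4-2 mutant, to ask what losing 2 RNA-tailing enzymes adds where the RNA exosome is already impaired. Loci were taken from the authors' deposited table of comparisons, taken here to be with the wild type Col-0, and joined by locus identifier. The measure was the difference of the log2 fold changes, triple mutant minus rrp4-2. Both lines listed 1457 loci, out of 14888 loci in the table. The table listed 6081 more loci in the triple mutant only and 1379 in rrp4-2 only. Those were kept apart, because a locus that is not listed has no value.

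The study sequenced small RNA from inflorescences of 8 genotypes, with 3 libraries each. The groups used here are the triple mutant rrp4-2/urt1-1/heso1-4, the mutant rrp4-2 and the wild type Col-0, and every line is in the Col-0 ecotype. Plants spent 10 days on plates and 4 weeks in soil, and 1 µg of total RNA went into each NEBNext small RNA library. The labels name no treatment, and both mutant groups carry the rrp4-2 mutation, so the alleles that separate them are urt1-1 and heso1-4, which were added together.

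The RNA exosome degrades RNA from its 3′ end, and RRP4 is a subunit of its core. URT1 and HESO1 are terminal nucleotidyl transferases that add uridines to RNA 3′ ends. URT1 acts mainly on mRNAs with shortened poly(A) tails, and HESO1 is best known for tailing unmethylated small RNAs and the 5′ fragments left by microRNA-guided cleavage. Transcripts that escape decay can be copied into double-stranded RNA by RNA-dependent RNA polymerases and diced into secondary siRNAs, and other transcripts leave short decay fragments that a small RNA library also captures. The values used here hold no read lengths, so siRNAs and decay fragments were not told apart.

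A log2 value given for a line is its difference of small RNA level from Col-0, and ± marks the standard error recovered from the deposited p-value. A value called a difference, or by which a locus differed or was higher between the lines, is the triple mutant's log2 value minus that of rrp4-2, and its ± combines both errors. The deposited table gives no value of a single library, so neither the depth per library nor the number of libraries that show a direction is known. Mean normalised counts of the loci in both lines ran between 4.21 and 12344, median 53.2, in the authors' deposited table, and loci with few reads have wide errors. Of 65641 loci tested for the triple mutant, the authors' deposited table listed 11.5% (6.4% higher, 5.08% lower), and of 63565 tested for rrp4-2 it listed 4.46% (3.45% higher, 1.01% lower). Ranks recovered from the p-values showed that 2122 loci past the threshold in the triple mutant and 904 in rrp4-2 are not in the listing used here. That threshold is an adjusted p of at most 0.05 in the authors' test. For a locus listed in a single line, the limit of the other line is the smallest change it could have listed at that locus. Because the listing is incomplete, an unlisted locus may still exceed it. The strand used for counting is not given in the sources used here, so reads of overlapping genes cannot be told apart.

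Small RNAs of the mutated genes were examined first. URT1 (AT2G45620) fell by 0.81 ± 0.27 in the triple mutant and was not listed in rrp4-2, whose limit was 0.79, in the authors' deposited table. HESO1 (AT2G39740) was higher by 1.14 ± 0.26 in the triple mutant and not listed in rrp4-2, where the limit was 0.76, in the authors' deposited table. RRP4 (AT1G03360) was listed in neither line. These are small RNA levels, and mRNA was not measured.

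Of the 1457 loci listed in both lines, 275 differed between the triple mutant and rrp4-2, which is 18.9% (two-sided z test on the difference, Benjamini-Hochberg adjusted p under 0.05). The triple mutant was higher at 147 loci (10.1%) and lower at 128 (8.79%). The other 1182 did not pass, with a median standard error of the difference of 0.38. The median difference over all 1457 was 0.17, with quartiles at -0.14 and 0.50. With the differences centred on that median the split was 105 higher and 139 lower. The 2 fold changes share the Col-0 libraries, and the errors were added as if they did not. With a correlation of 0.5 between them, 231 were higher and 157 lower. Under the stricter Holm adjustment 57 were higher and 98 lower, so the balance of directions depends on the adjustment. It also depends on loci that lie on opposite sides of Col-0 in the 2 lines, 80 of the 128 lower and 3 of the 147 higher. Listing of both values nearly fixes that these pass.

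In the authors' deposited table, 1215 of the 1457 loci were above Col-0 in both lines, and among these the triple mutant was higher at 144 and lower at 17. Another 159 loci lay below Col-0 in both lines, with 0 higher and 31 lower in the triple mutant by the same z test. The remaining 83 loci went in opposite directions, and all 83 passed, which listing of both values nearly fixes. In 80 of them the triple mutant lay below Col-0 and rrp4-2 above it. These 80 had a median of -0.93 in the triple mutant and 0.58 in rrp4-2 in the authors' deposited table. They held 40 transposable elements, 7 transposable element genes, 23 protein-coding loci and 10 of other types. The 3 of the reverse kind are all protein-coding: BGAL11, a beta-galactosidase, at 0.87 in the triple mutant and -0.74 in rrp4-2, CNX1, the endoplasmic reticulum chaperone calnexin, at 0.91 in the triple mutant and -0.73 in rrp4-2, and PRH75, a DEAD-box RNA helicase, at 0.55 in the triple mutant and -0.61 in rrp4-2, in the authors' deposited table.

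**Figure D1:**
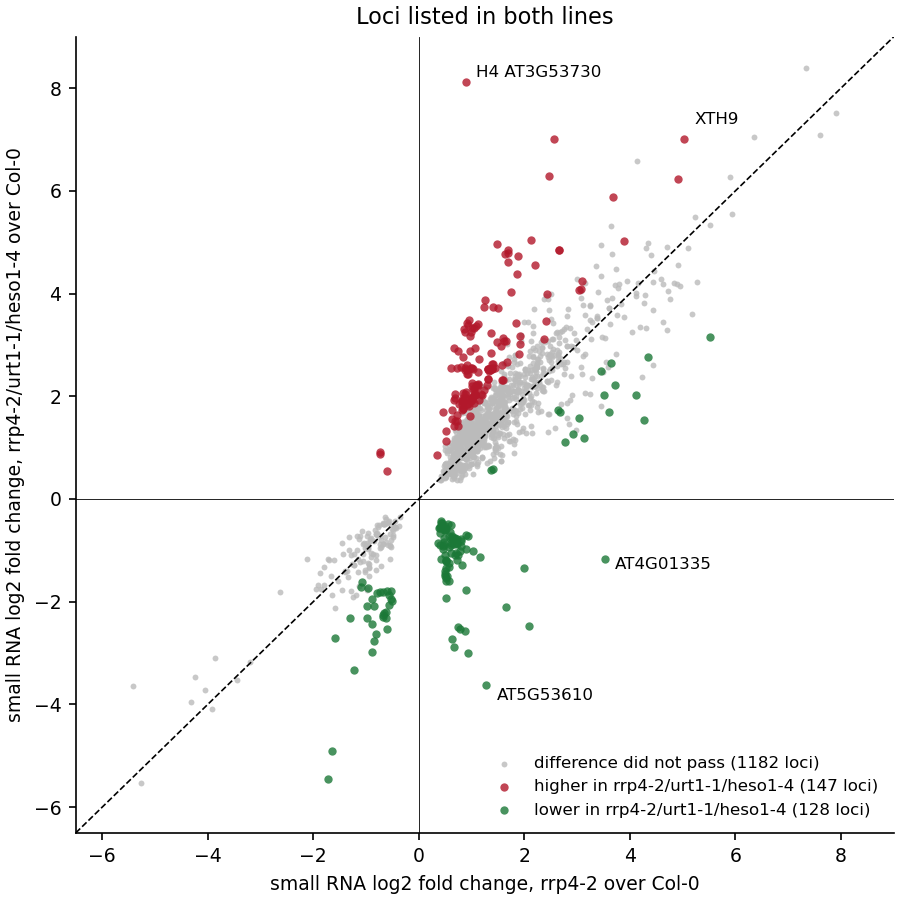
Log2 fold change over Col-0 of each of the 1457 loci listed in both lines, with rrp4-2/urt1-1/heso1-4 on the vertical axis and rrp4-2 on the horizontal axis. Points above the dashed line of equality are higher in the triple mutant, the band around 0 is empty because only loci past the authors' threshold are listed, and points at lower right are the 80 loci below Col-0 in the triple mutant and above it in rrp4-2.

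Loci were also counted by the type given in the table. Small nuclear RNA genes had the highest median difference among types with at least 20 loci in both lines, 1.21 over 26 loci, of which 20 were higher and 0 lower in the triple mutant. Loci typed only as transcribed regions had a median of 0.74 over 40 loci, with 12 higher and 2 lower. Long noncoding RNAs had 0.41 over 58 loci, with 12 higher and 4 lower. Protein-coding loci had 0.25 over 796 loci, with 77 higher and 35 lower. Antisense long noncoding RNAs had 0.22 over 56, with 5 higher and 1 lower, and other RNAs 0.38 over 22, with 3 higher and 0 lower. At the other end, transposable elements had a median of -0.18 over 242 loci, with 8 higher and 64 lower, and pseudogenes -0.13 over 21, with 1 higher and 6 lower. Transposable element genes had a median of -0.02 over 96 loci, with 5 higher and 12 lower. The share that passed was 76.9% of small nuclear RNA genes, 29.8% of transposable elements and 14.1% of protein-coding loci, beside 18.9% of all loci. Of the lower loci, 40 of the 64 transposable elements and 23 of the 35 protein-coding loci lay above Col-0 in rrp4-2 and below it in the triple mutant. Listing of both values nearly fixes that such loci pass, so these shares partly reflect which loci were listed. Part of these counts rests on shared positions. Of 203 loci that passed and have a RefSeq entry, 57 (28.1%) overlap another that passed, in 30 pairs that all have differences of the same sign. Among all 1213 tested loci with an entry, 247 (20.4%) overlap another tested one.

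**Figure D2:**
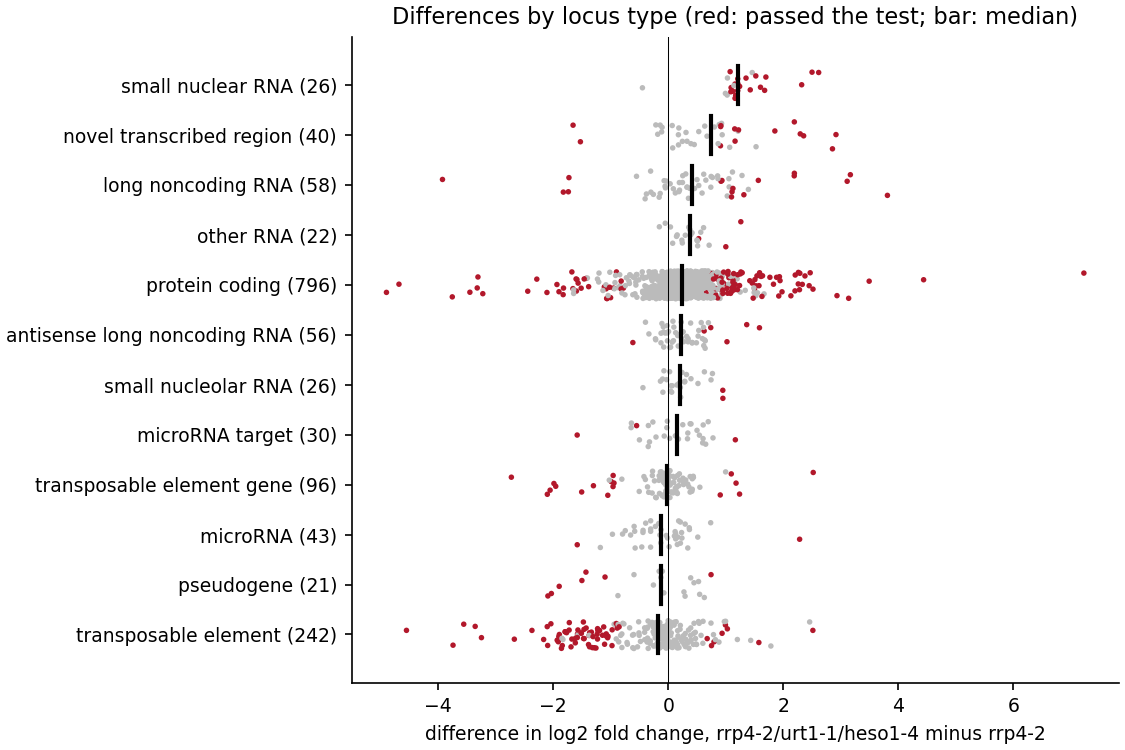
Difference in log2 fold change, rrp4-2/urt1-1/heso1-4 minus rrp4-2, of every locus listed in both lines, by deposited locus type (types with at least 20 such loci, number in brackets). Red points passed the z test, and black bars mark medians, from 1.21 for small nuclear RNA genes down to -0.18 for transposable elements.

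The largest difference of the comparison was that of a histone gene. Histones package DNA into nucleosomes (H2A, H2B, H3 and H4) or bind the linker between them (H1), and the replication-dependent genes are transcribed in S phase. Of 43 histone genes in a list drawn up by family, 39 gave more small RNA in the triple mutant than in Col-0, 2 did so in rrp4-2, and 4 were listed in neither (CENH3, HTA8, HTA9 and HTA11). Among all tested loci, 6.4% were listed as higher in the triple mutant and 3.45% in rrp4-2. For 37 of the 39 the comparison with rrp4-2 rests on a limit. Their values in the triple mutant ran between 2.23 and 8.20, median 6.73, in the authors' deposited table, against rrp4-2 limits between 0.58 and 1.89. Among all 6081 loci listed in the triple mutant only, 225 lay above the rrp4-2 limit by more than 1 in the upward direction and 41 by more than 4.

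Both genes with a value in each line passed the test. The H4 gene AT3G53730 (TAIR10.1, chromosome 3, 19912385 to 19913515, minus strand) was at 8.12 ± 0.25 in the triple mutant and 0.89 ± 0.25 in rrp4-2 in the authors' deposited table. The gene had a mean normalised count of 2678 in the authors' deposited table. Its difference of 7.22 ± 0.35 was the largest of all 1457 loci (z test, adjusted p = 2.31e-89). HTA12, which encodes an H2A.W variant found in heterochromatin, was at 4.38 ± 0.24 in the triple mutant and 1.87 ± 0.25 in rrp4-2 in the authors' deposited table, a difference of 2.52 ± 0.35 (z test, adjusted p = 1.39e-11). HTA12 overlaps HTB10 by 522 bases on the opposite strand, and HTB10, an H2B gene listed in the triple mutant only, was at 6.60 in the authors' deposited table. Their shares of those reads cannot be told apart.

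By family, the 7 H4 genes listed in the triple mutant only had a median of 7.59, and the 5 H3.1 genes, the replication-dependent form of H3, had a median of 7.79 and a highest value of 8.20 at HTR1 in the authors' deposited table. The 10 H2B genes had a median of 6.62 and the 6 H2A and H2AX genes a median of 6.61 in the same authors' deposited table. Linker histones H1.1 and H1.2 were at 7.54 and 7.48, and the stress-inducible H1.3 at 3.02, in the authors' deposited table. The replacement histone H3.3 genes HTR4 and HTR5 were the lowest listed, at 2.23 and 2.24, while HTR8, another H3.3 gene, was at 6.59 and HTR6, an H3.3-like gene, at 7.85 ± 0.65 in the authors' deposited table. The values of these 4 genes therefore span nearly the whole range of the listed histone genes.

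The first 60 coding bases of 4 of the 8 H4 genes show how alike the copies are, which bears on whether their reads can be told apart. Capitals mark the 18 positions at which the 8 genes are not all the same (RefSeq, TAIR10.1).
AT3G53730: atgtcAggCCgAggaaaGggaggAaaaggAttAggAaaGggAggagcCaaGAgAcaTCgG
AT5G59690: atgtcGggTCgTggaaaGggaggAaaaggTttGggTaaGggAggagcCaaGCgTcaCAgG
AT3G45930: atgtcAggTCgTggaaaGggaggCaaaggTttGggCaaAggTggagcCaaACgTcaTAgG
AT3G46320: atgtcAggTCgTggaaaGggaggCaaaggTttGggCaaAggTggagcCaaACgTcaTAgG
All 8 coding sequences are 312 bases long, and the other genes share between 78.8% and 82.4% of coding bases with AT3G53730. Only 1.26% of the 21-base words of the AT3G53730 transcript occur elsewhere in the genome, against 38.6% for AT3G45930 and 41.7% for AT3G46320. Over the 8 genes the share had a median of 27.1%.

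Genes of DNA replication act in the same phase of the cell cycle. Of 12 DNA replication genes, 3 were listed in the triple mutant and 0 in rrp4-2, where 11.5% and 4.46% of all tested loci were. TSO2, a ribonucleotide reductase subunit, was at 5.14 and PCNA1, the sliding clamp, at 1.84, whereas MCM5, a subunit of the replicative helicase, was at -2.46 in the triple mutant in the authors' deposited table. The antisense RNA locus AT1G04503 was at 7.90 in the triple mutant in the authors' deposited table. This was the highest among loci listed there only and outside the histone lists, leaving out transposable element fragments. The gene it lies opposite is not given here, and reads of overlapping genes cannot be told apart.

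**Figure D3:**
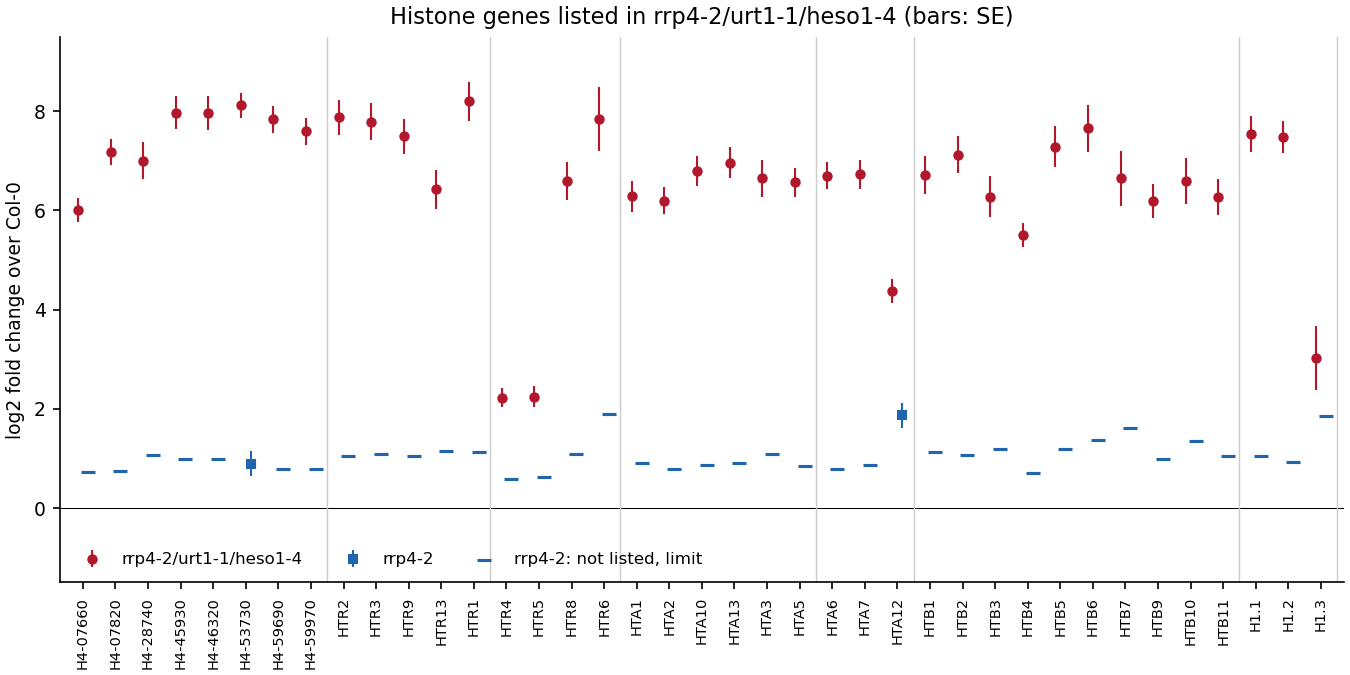
Log2 fold change over Col-0 of the 39 histone genes listed in rrp4-2/urt1-1/heso1-4 (circles, bars are SE), by family from H4 at left to linker histones at right. Squares give rrp4-2 where it was listed, at the H4 gene AT3G53730 and at HTA12, and short lines give the rrp4-2 limit, which lies below the triple mutant value at each of the other 37 genes.

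Small nuclear RNAs, the RNA cores of the spliceosome, made up a second group. RefSeq lists 82 such genes, of which 26 were listed in both lines, 20 in the triple mutant only and 0 in rrp4-2 only. Of the 26, 20 were higher in the triple mutant by the z test, where 10.1% of all tested loci were, 0 were lower and 6 did not pass. Under Holm adjustment 8 passed. Leaving out loci that overlap another tested locus, a setting chosen after seeing the data, removed genes such as U1.10, U1.7 and U6acat from the test. Of the snRNA genes that remained, 10 passed, so the lower count reflects removal of genes that had passed. Their median was 2.53 in the triple mutant and 1.25 in rrp4-2 in the authors' deposited table. The 20 genes listed in the triple mutant only were all higher than Col-0, with a median of 1.17 in the authors' deposited table and a median excess over the rrp4-2 limit of only 0.09.

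By class, grouped after the values were seen, 7 of 8 U1 genes passed, with a median difference of 1.56. U1 pairs with 5′ splice sites. U6, in the catalytic centre, had 7 of 8 with a median of 1.19, and its partner U4 had 3 of 4 with a median of 1.09. Copies of a class are not independent results. U6-1 and U6.4 had mean normalised counts of 3727 and 3728 in the authors' deposited table. Of their 21-base words, 97.5% and 100% occur elsewhere in the genome. None of 3 U5 genes passed, with differences between 0.99 and 1.03 and 95% intervals that all include 0. The widest of these, at U5.10, ran between -0.38 and 2.36. U2 genes, which bind the branch point, were listed in the triple mutant only, 13 of 23, between 1.00 and 1.22 in the authors' deposited table against rrp4-2 limits between 1.04 and 1.12. The only negative difference was that of the annotated fragment U6.11p, -0.45 (95% interval -2.02 to 1.13).

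Of 6 genes of the minor spliceosome, which removes a rare class of introns, 3 were listed in both lines, with a median difference of 2.50, and all 3 passed. U6atac2 was at 3.87 ± 0.30 in the triple mutant and 1.26 ± 0.31 in rrp4-2 in the authors' deposited table, a difference of 2.61 ± 0.43. U6acat was at 3.73 ± 0.27 in the triple mutant and 1.24 ± 0.28 in rrp4-2 in the authors' deposited table, a difference of 2.50 ± 0.39. U4atac was at 2.98 ± 0.27 in the triple mutant and 1.56 ± 0.27 in rrp4-2 in the authors' deposited table, a difference of 1.42 ± 0.38. U12, of the same spliceosome, was listed in the triple mutant only, at 1.98 in the authors' deposited table, against an rrp4-2 limit of 0.96.

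Among U1 genes the largest difference was that of U1.10, at 3.33 ± 0.25 in the triple mutant and 1.01 ± 0.25 in rrp4-2 in the authors' deposited table (difference 2.32 ± 0.36; z test, adjusted p = 1.47e-09). U1.5 was at 2.56 ± 0.24 in the triple mutant and 0.88 ± 0.24 in rrp4-2 in the authors' deposited table, a difference of 1.67 ± 0.34. Both are shown whole as annotated (RefSeq, TAIR10.1), with the stretch ACTTACC, by which U1 pairs with 5′ splice sites, in capitals where the annotated gene holds it in full.
U1.5: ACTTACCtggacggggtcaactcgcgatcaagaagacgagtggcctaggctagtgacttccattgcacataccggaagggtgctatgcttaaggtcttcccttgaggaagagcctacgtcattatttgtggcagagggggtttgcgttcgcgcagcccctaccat
U1.10: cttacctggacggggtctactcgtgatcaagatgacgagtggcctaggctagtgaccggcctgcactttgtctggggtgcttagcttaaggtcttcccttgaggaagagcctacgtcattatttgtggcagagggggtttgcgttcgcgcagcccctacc
U1.5 lies at chr1:2538074-2538238 and U1.10 at chr1:4007237-4007396, both on the minus strand, and they share 88.0% of aligned bases. Of their 21-base words, 77.9% in U1.5 and 52.1% in U1.10 occur elsewhere in the genome. Over the 46 snRNA genes listed in either line the median share was 67.7%, and how reads that map to several places were counted is not given in the sources used here. Several snRNA genes also overlap a protein-coding locus that passed with nearly the same difference, such as U1.7 with AT3G05675, U1.2 with AT4G23420 and U6acat with AT5G40400, and the reads of each pair cannot be told apart.

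Other stable noncoding RNAs are given next. AT7SL-1, a locus annotated as the 7SL RNA of the signal recognition particle, was at 2.61 ± 0.21 in the triple mutant and 1.57 ± 0.21 in rrp4-2 in the authors' deposited table, and the difference of 1.04 ± 0.30 passed. Of 26 small nucleolar RNA genes in both lines, which guide rRNA modification or processing, 2 were higher (U3B and U3D, each by 0.95) and 0 lower. Among all tested loci 10.1% were higher and 8.79% lower. The other 24 did not pass, and the median over the 26 was 0.20. U3B overlaps AT5G53905 and U3D overlaps HSFA9, each of which also differed by 0.95, and the reads of each pair cannot be told apart. U3 takes part in the first cleavages of pre-rRNA. Another 33 small nucleolar RNA genes were listed in the triple mutant only, all higher, with a median of 0.88 in the authors' deposited table. Their median excess over the rrp4-2 limit was only 0.07. Of 287 such genes in RefSeq, 59 were listed in the triple mutant and 32 in rrp4-2, where 11.5% and 4.46% of all tested loci were. Transfer RNA genes were never listed in both lines. Of 672 in RefSeq, 33 were listed in the triple mutant and 26 in rrp4-2, where 11.5% and 4.46% of all tested loci were. The triple mutant only had 29 higher and 4 lower, and rrp4-2 only had 26, all lower, in the authors' deposited table. The values listed in the triple mutant only exceeded the rrp4-2 limit by a median of only 0.05. Ribosomal RNA genes were listed in rrp4-2 only, 4 of 11, all lower.

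**Figure D4:**
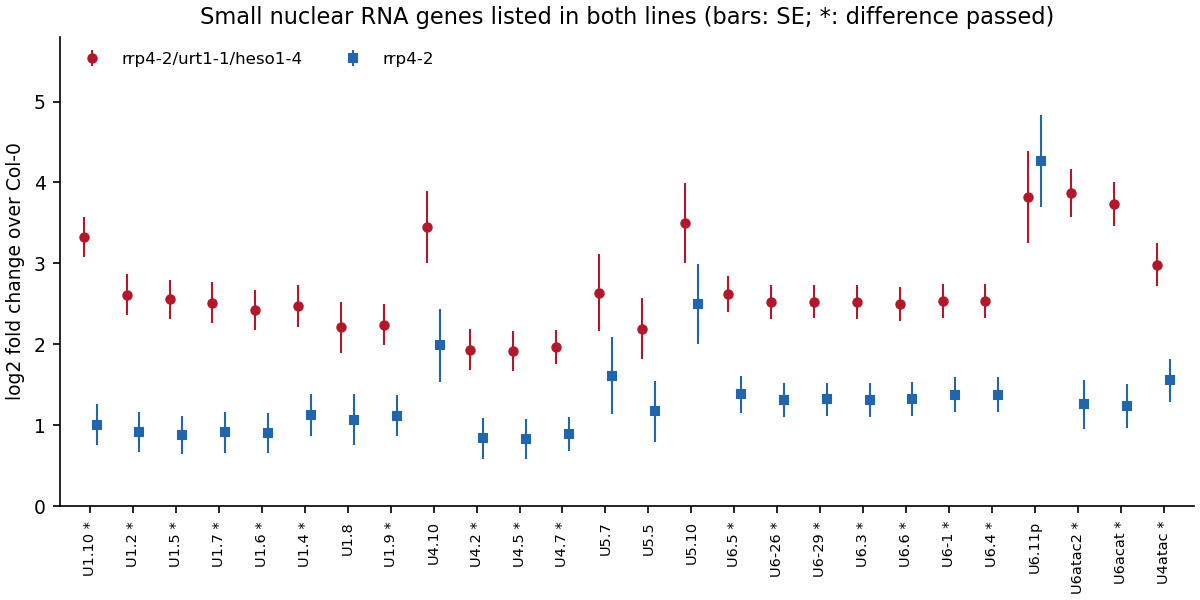
Log2 fold change over Col-0 of the 26 small nuclear RNA genes listed in both lines, rrp4-2/urt1-1/heso1-4 as circles left of rrp4-2 as squares, with SE bars; a star marks a difference that passed the z test. The triple mutant lies above rrp4-2 at every gene except U6.11p.

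Extensins are hydroxyproline-rich proteins that are cross-linked into the cell wall. RefSeq names 17 genes as members of the proline-rich extensin-like family, a list drawn up after the values were seen. All 11 listed in both lines were higher in the triple mutant, where 10.1% of all tested loci were. Their median was 3.17 in the triple mutant and 0.97 in rrp4-2 in the authors' deposited table, and their median difference was 2.21. Another 4 were listed in the triple mutant only, all higher, with a median of 2.33 in the authors' deposited table, and 2 were listed in neither line.

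AT4G08380 had the largest of these differences, at 4.97 ± 0.40 in the triple mutant and 1.48 ± 0.41 in rrp4-2 in the authors' deposited table (difference 3.49 ± 0.57; z test, adjusted p = 1.98e-08). AT1G23720 had the smallest, at 1.98 ± 0.17 in the triple mutant and 1.01 ± 0.17 in rrp4-2 in the authors' deposited table (difference 0.97 ± 0.24; z test, adjusted p = 0.00041) and did not pass under Holm adjustment. EXT6 was at 3.25 ± 0.25 in the triple mutant and 0.99 ± 0.25 in rrp4-2 in the authors' deposited table. EXT11, which the table types as a transposable element gene, was at 3.48 ± 0.25 in the triple mutant and 0.96 ± 0.25 in rrp4-2 in the authors' deposited table and also passed. These genes are built of repeats. The 21-base word found in most of them, 9 of 17 genes, with 28 copies in all, is shown as it stands in AT4G08410 (chr4:5340591-5340611, minus strand, RefSeq, TAIR10.1), which holds 6 copies.
Extensin 21-base word: ctccaccaccaccatacgtct
All 9 genes that hold it are among the 11 that passed. Across the 17 genes a median of 26.3%, and at most 78.2%, of 21-base words occur elsewhere in the genome. The share was 6.8% in AT4G08380 and 0% in AT5G59170. How reads that map to several places were counted is not given in the sources used here.

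Other cell wall genes were named after their values were seen, apart from the list of xyloglucan endotransglucosylase/hydrolases (XTH), enzymes that cut and rejoin xyloglucan, which was taken whole but also afterwards. Of 30 XTH genes, 4 were listed in both lines and 2 were higher in the triple mutant, where 10.1% of all tested loci were. Another 5 were listed in the triple mutant only, 4 higher and 1 lower than Col-0, and XTH15 in rrp4-2 only, at 1.46 in the authors' deposited table against a triple mutant limit of 0.88. XTH9 was at 7.01 ± 0.45 in the triple mutant and 5.03 ± 0.45 in rrp4-2 in the authors' deposited table, a difference of 1.98 ± 0.64 that did not pass under Holm adjustment. XTH16 was at 3.73 ± 0.29 in the triple mutant and 1.40 ± 0.30 in rrp4-2 in the authors' deposited table, a difference of 2.33 ± 0.42. XTH13 was at 3.96 in the triple mutant and 2.41 in rrp4-2 in the authors' deposited table and did not pass (95% interval of the difference -0.14 to 3.24). XTH3 was at -1.42 in the triple mutant and -1.41 in rrp4-2 in the authors' deposited table and did not pass (95% interval -1.11 to 1.08). EXO, a gene tied to cell expansion, was higher by 1.54 ± 0.38, and the wall genes LRX3, an extensin fused to leucine-rich repeats, and AGP15, an arabinogalactan protein, by 0.83 and 0.92.

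Transcripts cut by microRNAs, a main source of secondary siRNAs, were taken as 12 lists. Of their 72 genes, 30 were listed in the triple mutant and 22 in rrp4-2, where 11.5% and 4.46% of all tested loci were. In both lines 15 were listed, where 1 was higher in the triple mutant, 0 lower and 14 did not pass, with a median difference of 0.12. Among all loci tested for a difference 10.1% were higher and 8.79% lower, and 15 genes are too few to tell apart from those shares. Another 15 were listed in the triple mutant only, all higher, between 0.59 and 1.42 in the authors' deposited table. Of 7 listed in rrp4-2 only, 6 were higher. The 15 values in the triple mutant exceeded the rrp4-2 limit by a median of 0.20.

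The gene that passed was TCP4, 1 of 5 TCP transcription factor genes cut under guidance of miR319, which restrain cell division in leaves and petals. TCP4 was at 4.25 ± 0.24 in the triple mutant and 3.09 ± 0.24 in rrp4-2 in the authors' deposited table (difference 1.17 ± 0.34; z test, adjusted p = 0.0051). TCP3 was at 4.90 ± 0.27 in the triple mutant and 4.30 ± 0.27 in rrp4-2 in the authors' deposited table, with a difference of 0.60 ± 0.38 that did not pass (95% interval -0.14 to 1.34). TCP10 was at 2.78 ± 0.26 in the triple mutant and 2.08 ± 0.26 in rrp4-2 in the authors' deposited table (95% interval of the difference -0.03 to 1.42). TCP24 differed by 0.18 ± 0.37 (95% interval -0.54 to 0.89). TCP2 was the only member with a negative difference, -0.21 ± 0.34 (95% interval -0.89 to 0.46), at 3.42 in the triple mutant and 3.63 in rrp4-2 in the authors' deposited table. The 4 that did not pass all have intervals that include 0. With a correlation of 0.5 for the shared Col-0 libraries TCP10 passed as well (z test, adjusted p = 0.031), and under Holm adjustment TCP4 did not pass.

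The miR319a sequence and its best-matching stretch in each TCP transcript are printed to show that the site is shared by genes that passed and did not pass. In miR319a, written as DNA, capitals mark the seed, bases 2 to 8. In the sites, capitals mark bases that pair with miR319a by the reverse complement.
miR319a: tTGGACTGaagggagctccct
TCP4 site: gaGGgGtcCCCTTCAGTCCAg
TCP3 site: gaGGgGtcCCCTTCAGTCCAt
TCP10 site: AaGGgGtaCCCTTCAGTCCAg
TCP24 site: taGGgGgaCCCTTCAGTCCAA
TCP2 site: caGGgGgaCCCTTCAGTCCAA
All 5 sites lie within the coding sequence. The TCP4 site (chr3:5063300-5063320, plus strand) and the TCP3 site (chr1:19850522-19850542, minus strand) each have 6 mismatches to miR319a, and the sites of TCP10, TCP24 and TCP2 have 5.

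**Figure D5:**
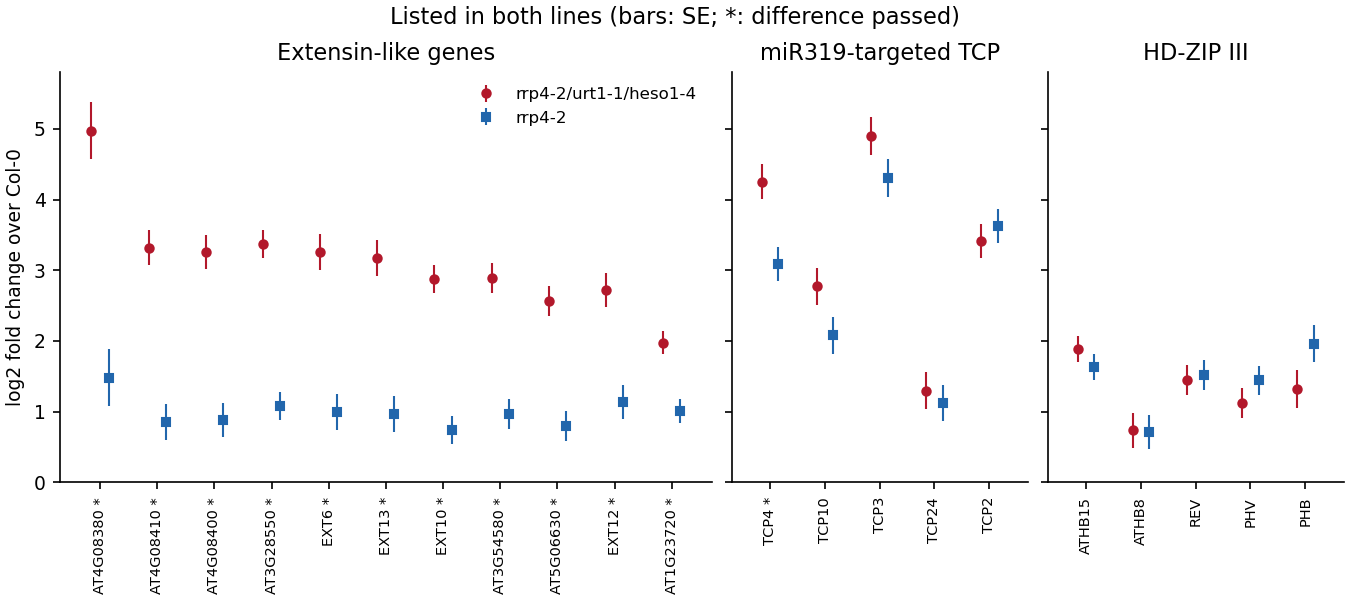
Log2 fold change over Col-0 of extensin-like genes, miR319-targeted TCP genes and HD-ZIP III genes listed in both lines, rrp4-2/urt1-1/heso1-4 as circles left of rrp4-2 as squares, with SE bars; a star marks a difference that passed the z test. All 11 extensin-like genes, 1 of 5 TCP genes and 0 of 5 HD-ZIP III genes carry a star.

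The 5 HD-ZIP III genes, leaf polarity regulators cut by miR165 and miR166, were all listed in both lines and none passed the adjusted z test, with a median difference of -0.07 and 95% intervals, before adjustment, that include 0 at all 5. PHB was at 1.32 ± 0.27 in the triple mutant and 1.96 ± 0.26 in rrp4-2 in the authors' deposited table, a difference of -0.65 (95% interval -1.38 to 0.09). ATHB15 was at 1.88 ± 0.18 in the triple mutant and 1.63 ± 0.18 in rrp4-2 in the authors' deposited table, a difference of 0.25 (95% interval -0.26 to 0.76). SPL4, a flowering regulator cut by miR156, was at 2.57 ± 0.29 in the triple mutant and 3.07 ± 0.28 in rrp4-2 in the authors' deposited table and did not pass (95% interval -1.30 to 0.29). Some targets were listed in a single line. AFB2 and AFB3, auxin receptor genes cut by miR393, were at 0.78 and 0.68 in the triple mutant in the authors' deposited table, against rrp4-2 limits of 0.47 and 0.43. Both were also listed in urt1-1, at 1.46 and 1.41, and in heso1urt1, at 1.12 and 1.08, in the authors' deposited table. The differences between those lines and the triple mutant were not tested. AP2, a floral regulator cut by miR172, was listed in rrp4-2 only, at 1.77 in the authors' deposited table, against a triple mutant limit of 0.62, and ARPN, a plantacyanin gene cut by miR408, at 2.66, against a limit of 0.99. The deposited type microRNA target held 30 loci in both lines, of which TCP4 was higher and 2 were lower, where 10.1% and 8.79% of all tested loci were. The 2 were AT2G16580, a SAUR-like gene at -0.79 in the triple mutant and 0.80 in rrp4-2, and CHX18, a cation/proton exchanger gene at -1.63 in the triple mutant and -1.07 in rrp4-2, in the authors' deposited table.

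The table also holds microRNA genes themselves. Of 43 listed in both lines, 1 was higher in the triple mutant, 1 lower and 41 did not pass, with a median difference of -0.13. Among all tested loci 10.1% were higher and 8.79% lower. MIR5657 was at 4.04 ± 0.18 in the triple mutant and 1.75 ± 0.18 in rrp4-2 in the authors' deposited table (difference 2.28 ± 0.25; z test, adjusted p = 1.19e-17). MIR773b was at 2.77 ± 0.31 in the triple mutant and 4.35 ± 0.30 in rrp4-2 in the authors' deposited table (difference -1.58 ± 0.43; z test, adjusted p = 0.0018) and did not pass under Holm adjustment. Their mature sequences, written as DNA with the seed in capitals, share no seed (RefSeq, TAIR10.1).
miR5657: tGGACAAGgttagatttggtg
miR773b-3p: tTTGATTCcagcttttgtctc
Mature miR5657 lies at chr5:9789642-9789662 on the plus strand and miR773b-3p at chr1:13050725-13050745 on the minus strand. All 85 bases of the MIR5657 precursor lie within DEG14, a protease gene on the opposite strand. DEG14 was at 3.71 ± 0.14 in the triple mutant and 1.51 ± 0.15 in rrp4-2 in the authors' deposited table and passed, and the reads of MIR5657 and DEG14 cannot be told apart. DEG14 in turn lies 130 bases from HTA7, an H2A.W gene at 6.73 in the triple mutant in the authors' deposited table.

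Copper microRNAs, which cut transcripts of copper proteins when copper is short, were all listed in both lines and none of 7 passed the adjusted z test. Before adjustment the 95% intervals of MIR857 and MIR398A lay below 0. MIR857 was at 3.45 ± 0.40 in the triple mutant and 4.63 ± 0.40 in rrp4-2 in the authors' deposited table, a difference of -1.18 (95% interval -2.29 to -0.07; z test, Benjamini-Hochberg adjusted p = 0.167). MIR408 was at 2.23 ± 0.23 in the triple mutant and 2.07 ± 0.23 in rrp4-2 in the authors' deposited table (95% interval of the difference -0.49 to 0.81). Of their targets, CSD2, a superoxide dismutase gene, lay below Col-0 in both lines, at -1.17 in the triple mutant and -1.71 in rrp4-2 in the authors' deposited table, and did not pass (95% interval -0.28 to 1.36).

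Loci known for secondary siRNAs without a difference that passed include SMXL4, a phloem gene, at 1.87 ± 0.53 in the triple mutant and 2.80 ± 0.52 in rrp4-2 in the authors' deposited table (95% interval of the difference -2.38 to 0.52). NIA2, a nitrate reductase gene, was listed in the triple mutant only, at 1.07 in the authors' deposited table. TAS1B, which makes trans-acting siRNAs, was at -0.90 in the triple mutant and -0.55 in rrp4-2 in the authors' deposited table and did not pass (95% interval -0.79 to 0.09). TAS3C was at -1.28 in the triple mutant in the authors' deposited table and not listed in rrp4-2. None of 17 PPR genes that feed phased siRNAs was listed in the triple mutant, whereas 4 were in rrp4-2, between 0.61 and 0.75 in the authors' deposited table. The triple mutant limits there lay between 0.55 and 0.63, just below those values. None of 13 silencing genes was listed in either line. Of 29 exosome and decay genes, HEN2, a nuclear exosome helicase, was in both, at 1.47 ± 0.18 in the triple mutant and 0.91 ± 0.17 in rrp4-2 in the authors' deposited table, and did not pass after adjustment (unadjusted 95% interval 0.08 to 1.05).

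Both members of a list of 2 bromodomain genes were higher in the triple mutant, as were 10.1% of all tested loci, and neither passed under Holm adjustment. GTE2 was at 1.97 ± 0.22 in the triple mutant and 0.68 ± 0.22 in rrp4-2 in the authors' deposited table, a difference of 1.28 ± 0.31. GTE7 was at 2.83 ± 0.20 in the triple mutant and 1.89 ± 0.20 in rrp4-2 in the authors' deposited table, a difference of 0.94 ± 0.28. GTE2 overlaps the antisense RNA AT5G01765, which differed by 1.36. Of 6 HSP70, HSP90 and HSP101 chaperone genes, 5 were listed in the triple mutant and 0 in rrp4-2, where 11.5% and 4.46% of all tested loci were. HSP70-4 was at 5.00, HSP90.1 at 3.91 and HSP70-3 at 2.75 in the triple mutant in the authors' deposited table, against rrp4-2 limits of 0.87, 0.82 and 0.63. The 5 values had a median of 2.75 and ran down to 0.91, and the smallest excess over the rrp4-2 limit was 0.35.

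Small RNAs of tissue marker genes were looked at as well, although mRNA was not measured. Of 9 floral organ identity genes, 0 were listed in the triple mutant and only PI in rrp4-2, at -0.71 in the authors' deposited table. In neither line could the labelled tissue be checked this way. Of 6 pollen and tapetum genes, 2 were listed in the triple mutant and 1 in rrp4-2. VGD1, a pollen pectin methylesterase gene, was at -0.82 in the triple mutant and -0.85 in rrp4-2 in the authors' deposited table. A9, a tapetum gene, was at -3.01 in the triple mutant in the authors' deposited table and not listed in rrp4-2, whose limit was 2.14. Of 11 photosynthesis genes, RBCS1B and RBCS3B were lower in rrp4-2 only, at -0.81 and -0.65 in the authors' deposited table. Their part in the results was not tested.

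The remaining loci with the largest positive differences are mostly of unknown function. AT5G44306, an uncharacterized gene, was at 7.01 ± 0.57 in the triple mutant and 2.57 ± 0.60 in rrp4-2 in the authors' deposited table, a difference of 4.44 ± 0.83. The long noncoding RNA AT5G06845 was at 6.28 ± 0.27 in the triple mutant and 2.47 ± 0.28 in rrp4-2 in the authors' deposited table, a difference of 3.81 ± 0.39. OSB1, a single-stranded DNA binding protein gene of mitochondria, was at 4.78 ± 0.29 in the triple mutant and 1.64 ± 0.30 in rrp4-2 in the authors' deposited table, a difference of 3.14 ± 0.42. AT5G46640, an AT-hook DNA binding protein gene, was at 4.62 ± 0.20 in the triple mutant and 1.69 ± 0.20 in rrp4-2 in the authors' deposited table, a difference of 2.93 ± 0.28. The long noncoding RNAs AT4G06805 and AT4G06810 overlap by 418 bases on opposite strands and differed by 3.17 and 3.11. The transcribed regions AT1G09855 and AT5G00660 differed by 2.92 and 2.85. All of these lay above Col-0 in both lines, and further above it in the triple mutant.

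The most negative differences came mostly from loci below Col-0 in the triple mutant and above it in rrp4-2. AT5G53610, a gene for an X8-domain protein, was at -3.62 ± 0.62 in the triple mutant and 1.28 ± 0.35 in rrp4-2 in the authors' deposited table, a difference of -4.90 ± 0.71. AT4G01335, named for likeness to an RNA polymerase I initiation factor, was at -1.16 ± 0.39 in the triple mutant and 3.52 ± 0.30 in rrp4-2 in the authors' deposited table, a difference of -4.68 ± 0.49. AT4G36590, a MADS-box gene, was at -2.10 ± 0.54 in the triple mutant and 1.65 ± 0.49 in rrp4-2 in the authors' deposited table, a difference of -3.75 ± 0.73. The long noncoding RNA AT5G04865 differed by -3.93 ± 0.47. AT3G48205, a thionin-like gene, differed by -3.45, the uncharacterized genes AT3G43970 and AT1G22120 by -3.32 and -3.31, and AT4G26460, a methyltransferase-like gene, by -3.22. Smaller ones followed at AT2G15260, a RING-type gene (-2.44), AT4G15970, a sugar transferase-like gene (-2.29), and AT4G15750, a pectin methylesterase inhibitor gene that lay below Col-0 in both lines (-2.11, not passing under Holm adjustment). The transposable element gene AT4G03824 lay above Col-0 in both lines, at 1.53 ± 0.51 in the triple mutant and 4.26 ± 0.47 in rrp4-2 in the authors' deposited table, and its difference did not pass under Holm adjustment.

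Transposable elements, whose small RNAs mostly guide DNA methylation, supplied 64 of the 128 lower loci. Of these 64, 40 lay on opposite sides of Col-0 in the 2 lines, where listing nearly fixes that a locus passes. The most negative was AT4TE83230, at -2.47 ± 0.68 in the triple mutant and 2.08 ± 0.59 in rrp4-2 in the authors' deposited table, a difference of -4.55 ± 0.89. The most positive was AT5TE71590, at 3.43 ± 0.25 in the triple mutant and 0.92 ± 0.26 in rrp4-2 in the authors' deposited table, a difference of 2.51 ± 0.36. Among elements listed in the triple mutant only, 517 were higher and 2459 lower than Col-0 in the authors' deposited table. Among those listed in rrp4-2 only, 437 were higher and 156 lower in the authors' deposited table, with values between -5.77 and 7.81. Transposable element genes listed in a single line were mostly higher in each, 366 higher and 127 lower in the triple mutant and 244 higher and 11 lower in rrp4-2, in the authors' deposited table. Protein-coding loci listed in the triple mutant only were 1786 higher and 360 lower, and those in rrp4-2 only 160 higher and 257 lower, in the authors' deposited table.

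Loci listed in a single line included large values in both. In the triple mutant only, the 8 highest outside transposable elements were 7 histone genes and AT1G04503. The lowest, again outside transposable elements, were the pseudogene AT1G65940 at -5.43, the RNA gene AT5G08125 at -5.27, AT1G80220 at -5.03 and AT5G40020, a thaumatin-like gene, at -4.90 in the authors' deposited table. AT1G65940 overlaps MIR5018, which was at -4.73 in the authors' deposited table, and their reads cannot be told apart. The rrp4-2 limits at these loci lay between 2.06 and 3.62. Of all 6081 triple-only loci, 4927 exceeded the rrp4-2 limit, 405 of them by more than 1, and the median excess was only 0.13. The limit is scaled from the triple mutant's own error and holds no rrp4-2 value. Exceeding it therefore does not show a difference between the lines. In rrp4-2 only, the highest outside transposable elements was AT5G21125, an uncharacterized gene, at 7.10 ± 0.70 in the authors' deposited table, against a triple mutant limit of 1.92. AT2G37700, a fatty acid hydroxylase-like gene, followed at 5.84 and AT1G14780, a gene for a perforin-domain protein, at 5.82 in the authors' deposited table. The lowest outside transposable elements was LBD16, a lateral root regulator, at -3.17 ± 0.34 in the authors' deposited table, against a triple mutant limit of 0.93. All 1379 rrp4-2-only loci exceeded the triple mutant limit, which the way the limit is set fixes in advance. Of these, 64 exceeded it by more than 1, 60 of them upward.

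Other lines of the same table, which share the Col-0 libraries, are given side by side. Of the 43 histone genes, 39 were higher in the triple mutant (median over those listed 6.73), 36 in rrp4urt1dcl2.B9 (median 3.19) and 39 in rrp4urt1dcl2het (median over 40 listed 5.72), 2 in rrp4-2, and 0 in urt1-1 and heso1urt1 of the authors' deposited table. Of the 17 extensin-like genes, 15 were listed in the triple mutant, all higher (median 3.07), 14 in rrp4urt1dcl2.B9 (median 1.35), 15 in rrp4urt1dcl2het (median 3.19), 11 in rrp4-2 (median 0.97), and 0 in urt1-1 and heso1urt1 of the authors' deposited table. Small nuclear RNA genes were listed 46 times in the triple mutant, 30 in rrp4urt1dcl2.B9, 31 in rrp4urt1dcl2het, 26 in rrp4-2, 13 in heso1urt1 and 2 in urt1-1 of the authors' deposited table. Among all tested loci, 11.5% were listed in the triple mutant (6.4% higher) and 4.46% in rrp4-2 (3.45% higher). The sources used here do not say which dcl2 line is the labelled group, and the differences between these lines were not tested. Set against rrp4-2 by the same z test, rrp4urt1dcl2.B9 differed at 57 of 1837 loci listed in both (44 higher, 13 lower) and rrp4urt1dcl2het at 122 of 2331 (93 higher, 29 lower).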

How the data were processed

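Small RNA was measured in inflorescences. Per the submitters' processing notes reads were handled with STAR 2.6.0a, cutadapt 2.4, DESeq2 and, from Subread 1.6.3, featureCounts, and the build was TAIR10; the order, parameters and strand setting are not given in the sources used here. The authors deposited a table of comparisons: a mean normalised count per locus (the signal, the same in every line), log2 fold changes from DESeq2, and p-values unadjusted and adjusted, per the file headers, for loci with an adjusted p up to 0.05. No header says what each line was compared with; Col-0 was assumed, being the wild type and absent from the lines listed. Lines were matched to labels by name.

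From these, the standard error of a fold change was obtained by dividing its size by the z value that matches its two-sided p-value. For the 1457 loci listed in both lines, a two-sided z test was run on the difference, with errors added in quadrature and Benjamini-Hochberg adjustment at 0.05 over all of them. The p-values rest on errors from the authors' DESeq2 fit, with 3 libraries a group, which the series' design text calls biological replicates. Whether that fit pooled the spread over lines is not given in the sources used here. Errors of the 2 lines were nearly alike, with a median ratio, rrp4-2 over triple mutant, of 0.98. They need not measure the spread within either line. The number of loci tested was recovered from the ratio of unadjusted to adjusted p. The limit of a line that does not list a locus is the normal quantile at that line's largest listed p times the locus's standard error in the other line, scaled by the median ratio of the lines' errors.

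The loci, gene lists and tests were chosen with earlier results of these data known; the extensin and XTH lists and the snRNA classes were added after the values were seen. Named by rule were the mutated genes, the 12 largest and 12 smallest differences that passed, the extreme transposable element in each direction, members of the described lists, the 8 highest and 8 lowest loci listed in a single line, summarised by their extremes, and the extremes of each locus type. Gene positions and sequences are from RefSeq's TAIR10.1 annotation, matched by locus identifier; 1213 of the 1457 loci matched, the other 244 including all 242 transposable elements. A word of 21 bases was counted as elsewhere if it occurs on either strand outside the locus's own transcript (for small nuclear RNAs, its own gene). Promoter, protein and hairpin sequences were not used here. Python 3.11.15, pandas 2.3.3, scipy 1.17.1 and statsmodels 0.14.6 were used.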

Additional observations from a re-analysis of the deposited data

How the results depend on the processing

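The 147 higher and 128 lower loci, 275 in all, were recounted under other settings. With a correlation of 0.5 between the fold changes, for the shared Col-0 libraries, 231 loci were higher, 124 of them protein-coding, and 157 lower. Centring on the median set that median to 0, and a mean normalised count of at least 50 gave a median of 0.10. With the authors' adjusted p at most 0.01 in both lines, 881 loci remained to be tested, the median was 0.22 and 170 passed, 51 of them lower, with 23 transposable elements and 13 protein-coding loci among those. Holm adjustment, stricter by construction, left 155 passing, 57 higher and 98 lower, with 8 small nuclear RNA genes and 31 protein-coding loci among the higher and 23 protein-coding among the lower. Leaving out loci that overlap another tested locus, a setting chosen after seeing the data, removed some small nuclear RNA genes from the test and left 10 higher. Against rrp4-2, the rrp4urt1dcl2.B9 line gave 57 (44 higher, 13 lower) and rrp4urt1dcl2het 122 (93 higher, 29 lower).

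Of the settings, only centring changes a difference itself, and it moves all by the same amount, so the direction of the 47 named loci was hardly tested. Under Holm adjustment 8 no longer passed (MIR773b, AT1G23720, TCP4, XTH9, AT4G03824, AT4G15750, GTE2 and GTE7), and TCP10 passed with a correlation of 0.5. No paired analysis was possible because the deposited table holds no values of single libraries; for the same reason no replicate could be left out. Depth per library is unknown, and a locus absent from the listing is not shown to be unchanged.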

Other observations

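Further genes with more small RNA in the triple mutant than in rrp4-2 were picked singly after their values were seen and stand for no group. NRPB1, the largest subunit of RNA polymerase II, was at 1.74 ± 0.20 in the triple mutant and 0.63 ± 0.21 in rrp4-2 in the authors' deposited table, a difference of 1.11 ± 0.29. CPL3, a phosphatase of the polymerase C-terminal domain, differed by 1.05 ± 0.27. TFIIB, a general initiation factor, differed by 0.93 ± 0.32. GAI, a DELLA repressor of gibberellin signalling, was at 1.88 ± 0.22 in the triple mutant and 1.05 ± 0.22 in rrp4-2 in the authors' deposited table and passed, while RGL1, another DELLA gene, was at 5.49 ± 0.23 in the triple mutant and 5.24 ± 0.23 in rrp4-2 in the authors' deposited table and did not (95% interval of the difference -0.38 to 0.89). The difference between GAI and RGL1 was not tested. MYB4, a repressor of phenylpropanoid genes, differed by 1.14 ± 0.42, and the lipid genes CER3, for cuticular wax, and DGD1, for galactolipids, by 1.03 ± 0.38 and 1.11 ± 0.31.

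A few genes lay above Col-0 in both lines but less so in the triple mutant. LBD20, a transcription factor gene, was at 1.70 ± 0.49 in the triple mutant and 3.60 ± 0.45 in rrp4-2 in the authors' deposited table. AGL12, a MADS-box gene best known from roots, was at 1.26 ± 0.45 in the triple mutant and 2.92 ± 0.41 in rrp4-2 in the authors' deposited table. CSLA03, a glucomannan synthase-like gene, differed by -1.68 ± 0.44. Neither of the transcription factor genes is abundant, with mean normalised counts of 20.5 and 26.0 in the authors' deposited table.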
